A study of Mus musculus with 8 samples.

Results

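The genes described are 49 protein-coding genes whose RNA was higher in every library taken at D8 and D10 than in every library taken at D1 and D3 of a culture of mouse embryonic stem cells. They were chosen by a rule on the measured values. The lowest of the 4 D8 and D10 libraries had to reach 1 CPM, CPM being a gene's reads scaled to a library total of 1000000 reads in genes, and to be at least 1.5 times the highest of the 4 D1 and D3 libraries. Of 19094 coding genes in the table, 60 (0.314%) met both thresholds. The rule leaves out 15 named endoderm genes, of which 11 met the thresholds, and this gives the 49. The higher level at D8 and D10 is therefore how the genes were picked and not a finding, and it is described below without a test. In the opposite direction 2 coding genes met the same thresholds. That contrast depends on the ratio of 1.5. With the 1 CPM minimum but no ratio, 422 coding genes had all D8 and D10 libraries above all D1 and D3 libraries, and 185 had the reverse.

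The cells belonged to the R1 line of mouse embryonic stem cells and were kept in serum and LIF, the cytokine that keeps such cells undifferentiated. There were 8 RNA sequencing libraries, 2 for each day. ML-792, a chemical inhibitor of the enzyme that activates SUMO, a small protein attached to other proteins, was given in 2 exposures of 48 h at a labelled dose of 2.5 mM. D1 libraries are labelled control and were taken before the first exposure, D3 libraries are labelled ML-792 and were taken at its end, D8 libraries are labelled control and were taken 5 days later, before the second exposure, and D10 libraries are labelled ML-792 and were taken at its end. The D8 and D10 cultures had both passed through the first exposure, and the labels name no D3, D8 or D10 library that never met ML-792, so the exposure and the days in culture cannot be told apart. The second D1 library is tagged day 0 in its time label, although its title gives D1.

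Several of these genes are known from the extraembryonic endoderm. As background, the primitive endoderm forms beside the epiblast in the blastocyst and gives rise to the visceral endoderm, which absorbs and secretes nutrients, and to the parietal endoderm, whose migrating cells lay down a thick basement membrane. GATA, SOX and FOX transcription factors drive this lineage, and retinoic acid, cyclic AMP and parathyroid hormone-related signals promote its parietal branch in cultured cells. Stem cell cultures in serum usually hold a few cells of this kind beside pluripotent ones.

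Reads in genes numbered 21040992 to 40835518 per library. The 8 markers of embryonic stem cells were present throughout, with Pou5f1, the core pluripotency factor, between 781 and 1352 CPM. Their summed level ran from 4903 to 5270 CPM at D1, from 4129 to 4201 CPM at D3, from 4667 to 4891 CPM at D8 and from 3166 to 3562 CPM at D10. In the edgeR test described below, 5 of the 8 markers were called lower and 0 higher at D10 against D8. Of all genes tested, 7.65% were called lower and 9.27% higher there. None of the 18 fibroblast and feeder cell markers in the table was among the 49 genes, and their sum was 54.5 to 84.1 CPM at D8 and D10, against 55.1 to 83.3 CPM at D1 and D3. D8 replicate 2 stood apart in base composition. Its departure from the average of the libraries, over 14693 coding genes, correlated with GC content (Spearman correlation 0.548), where the remaining libraries had values between -0.341 and 0.115. Genes of 1 library are not independent, and no p is given. The 49 genes had a median transcript GC content of 49.8%, against 49.9% for the 11796 coding genes that reached 1 CPM in each D8 and D10 library.

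**Figure D1:**
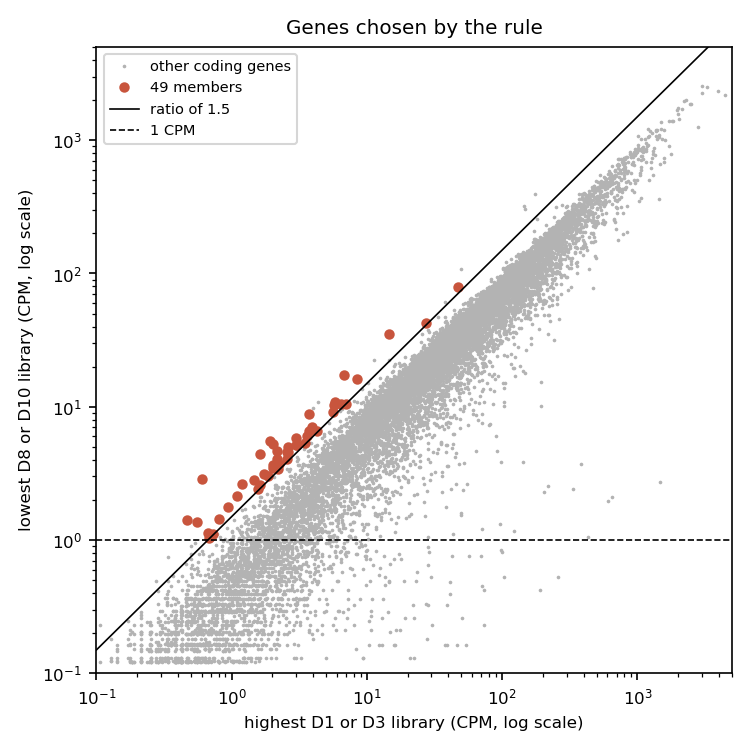
The lowest D8 or D10 library (vertical axis, CPM, log scale) is plotted against the highest D1 or D3 library (horizontal axis, CPM, log scale) for coding genes with at least 0.1 CPM on both axes. The 49 chosen genes lie on or above the line for a ratio of 1.5 and the line at 1 CPM. The other points above both lines are the 11 endoderm genes that the rule leaves out.

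The chosen genes were mostly of low abundance. Their median level was 1.19 and 1.69 CPM in the 2 D1 libraries, 1.57 and 2.06 CPM in the D3 libraries, 5.24 and 6.93 CPM in the D8 libraries, and 5.02 and 7.03 CPM in the D10 libraries. At D8 and D10, 38 of the 49 averaged under 10 CPM. The ratio of the lowest D8 or D10 library to the highest D1 or D3 library ran from 1.51 to 4.73, with a median of 1.79. The ratio of mean levels was wider, from 1.79 to 8.15 with a median of 3.93. Per kilobase of exon, the mean level over D8 and D10 ran from 0.117 CPM for Pde3a to 18.4 CPM for Srgn. In bulk RNA, more cells of a type that expresses a gene and more RNA per cell cannot be told apart. Reads per gene and library numbered 25 to 3623 at D8 and D10, against 1 to 1516 at D1 and D3, so the lowest D1 values rest on few reads.

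**Figure D2:**
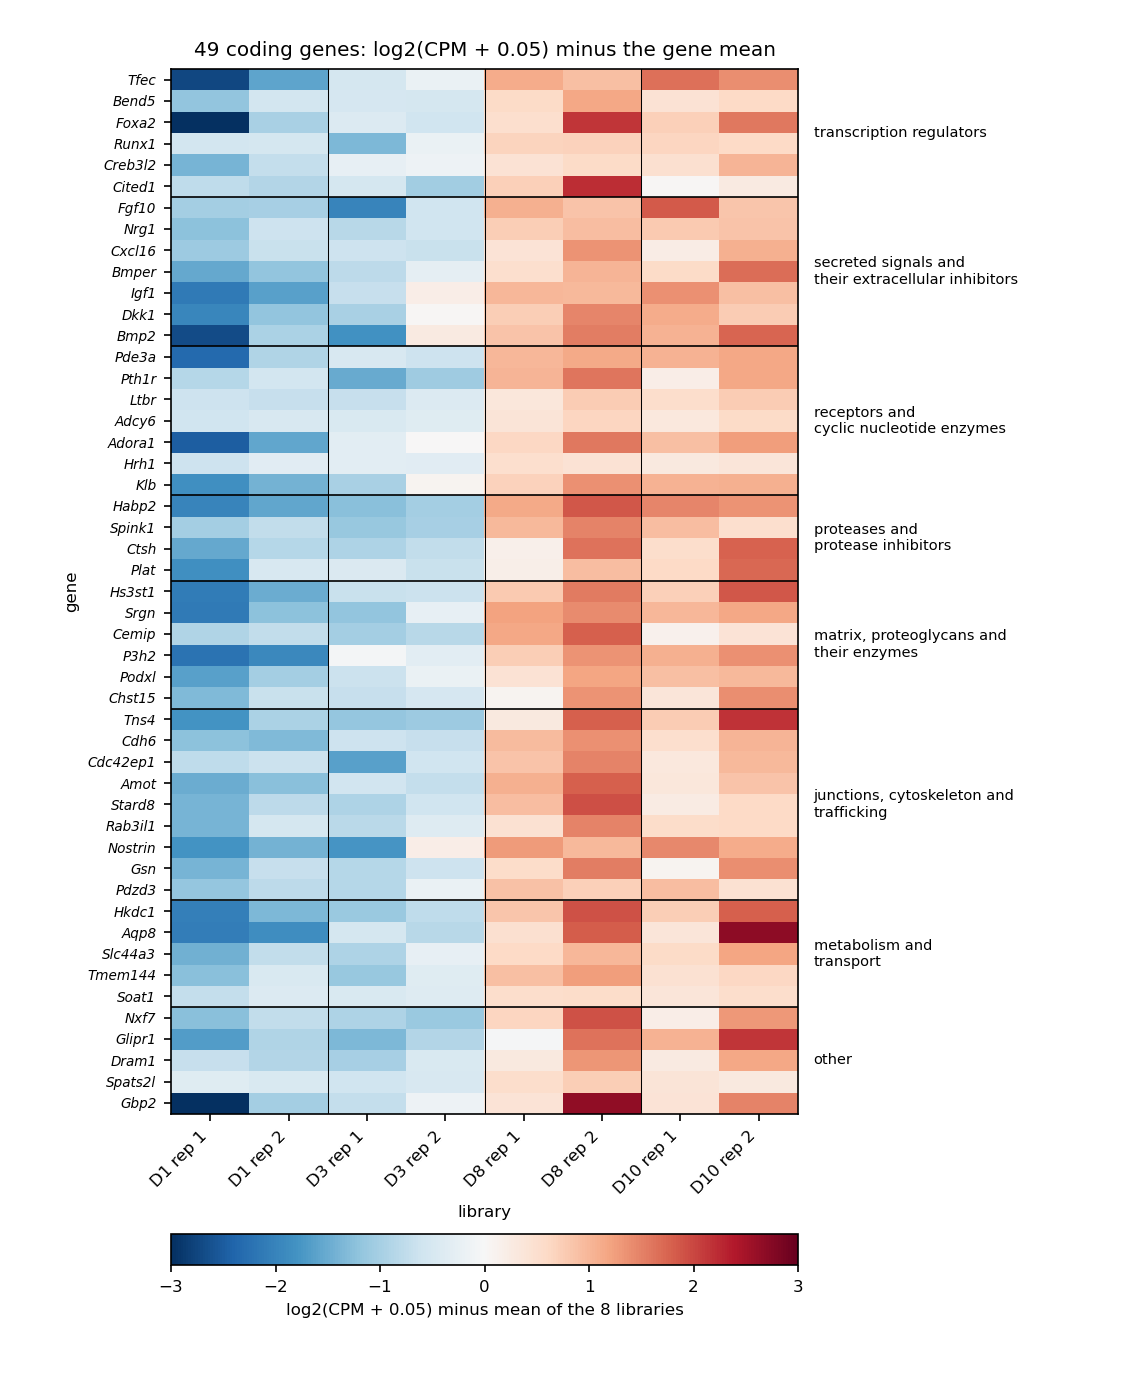
Each cell shows log2(CPM + 0.05) minus the gene's mean over the 8 libraries, with libraries across and the 49 genes down, grouped by role. The 4 D1 and D3 columns lie below the mean of each gene or close to it and the 4 D8 and D10 columns at or above it. The D8 replicate 2 column holds the highest value for 29 of the 49 genes and D10 replicate 2 for 14.

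Among the genes that encode transcription regulators, Foxa2, a forkhead factor of the definitive and visceral endoderm, had 0.143 and 0.736 CPM at D1, 1.10 and 0.957 CPM at D3, 2.13 and 6.72 CPM at D8 and 2.47 and 4.55 CPM at D10, replicate 1 before replicate 2. Within each late day replicate 2 was the higher library. Tfec, a basic helix-loop-helix factor of the MiT family, had 0.333 and 0.797 CPM at D1, 1.70 and 2.16 CPM at D3, 5.44 and 4.66 CPM at D8 and 7.95 and 6.59 CPM at D10. Its levels lay in 4 steps, in the order of the days, with no overlap between any of them. Creb3l2, a membrane-bound factor that promotes the expression of secretory pathway genes, had 2.95 and 4.72 CPM at D1, 6.54 and 6.95 CPM at D3, 10.6 and 11.5 CPM at D8 and 10.9 and 15.8 CPM at D10, and lay just inside the threshold with a ratio of 1.52. Its D3 libraries already stood above its D1 libraries. Cited1, a transcriptional co-activator, had 0.570 and 0.521 CPM at D1, 0.679 and 0.461 CPM at D3, 1.67 and 4.84 CPM at D8 and 1.03 and 1.22 CPM at D10, so that D8 replicate 2 was far above the rest. Runx1, best known as a regulator of blood formation, stayed between 4.60 and 4.87 CPM in the D8 and D10 libraries, against 1.15 to 2.62 CPM in the D1 and D3 libraries. The remaining regulator is Bend5, which encodes a BEN-domain protein and reached 5.85 to 9.72 CPM at D8 and D10, against 1.85 to 3.01 CPM at D1 and D3.

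Promoter windows of the first 2 of these genes are shown as examples. The windows are RefSeq sequence of build GRCm38.p6, 250 bases before to 50 bases after an annotated start, printed 5′ to 3′ on the strand of the gene, with capitals for matches to a searched motif in either orientation. The Foxa2 window, at chr2:148045415-148045714 on the minus strand, is that of the last of 3 annotated starts. The windows of the other two hold no match to a searched motif. This one holds AGATAA, searched as a motif of GATA-family factors. It also holds a motif of SOX factors, ACAAAG, once in each orientation. The Tfec window, at chr6:16898392-16898691 on the minus strand, holds ACAATG, another SOX motif, in reverse orientation. Such matches are common: AGATAA stood in 11.2% of all windows searched, ACAAAG in 18.7% and ACAATG in 12.6%.
Foxa2: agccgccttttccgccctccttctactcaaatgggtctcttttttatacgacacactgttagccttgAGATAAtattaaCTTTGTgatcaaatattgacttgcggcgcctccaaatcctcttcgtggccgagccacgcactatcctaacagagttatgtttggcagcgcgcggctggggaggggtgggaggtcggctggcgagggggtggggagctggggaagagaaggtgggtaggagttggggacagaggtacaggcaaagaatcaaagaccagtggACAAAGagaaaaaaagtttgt
Tfec: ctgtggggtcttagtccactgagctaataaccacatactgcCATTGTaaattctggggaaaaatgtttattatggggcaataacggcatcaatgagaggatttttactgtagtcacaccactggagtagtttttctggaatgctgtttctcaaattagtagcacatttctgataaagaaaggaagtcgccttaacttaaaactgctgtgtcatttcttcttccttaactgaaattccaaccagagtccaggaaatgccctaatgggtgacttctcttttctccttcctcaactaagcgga

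Secreted signals and their inhibitors made up 7 of the 49 genes. Nrg1, a ligand of the ErbB receptors, was the most abundant of them in CPM with 4.37 and 6.75 CPM at D1, 5.82 and 6.80 CPM at D3, 17.2 and 19.6 CPM at D8 and 18.04 and 18.7 CPM at D10. All late libraries lay within 17.2 to 19.6 CPM. Fgf10, a fibroblast growth factor, had 1.19 and 1.23 CPM at D1, 0.594 and 1.63 CPM at D3, 5.24 and 4.51 CPM at D8 and 8.94 and 4.46 CPM at D10, with D10 replicate 1 as the highest library. Bmp2, a bone morphogenetic protein known from the visceral and parietal endoderm, had 0.0475 and 0.276 CPM at D1, 0.127 and 0.709 CPM at D3, 1.08 and 1.76 CPM at D8 and 1.24 and 2.06 CPM at D10. It was the lowest of these genes at D1, together with Igf1. Dkk1, a secreted inhibitor of Wnt signalling, had 0.428 and 0.767 CPM at D1, 0.892 and 1.84 CPM at D3, 3.05 and 5.06 CPM at D8 and 3.95 and 3.06 CPM at D10, and Bmper, a secreted protein that binds bone morphogenetic proteins, averaged 0.925 ± 0.166 CPM at D1, 1.71 ± 0.438 CPM at D3, 4.22 ± 1.05 CPM at D8 and 5.78 ± 2.98 CPM at D10 (SD, n = 2 each). Igf1, the insulin-like growth factor, had 0.0951 and 0.153 CPM at D1, 0.340 and 0.673 CPM at D3, 1.21 and 1.18 CPM at D8 and 1.56 and 1.13 CPM at D10, so the 4 late values lay close together. The seventh is Cxcl16, a chemokine gene with 3.13 to 6.93 CPM at D8 and D10, against 1.24 to 1.74 CPM at D1 and D3.

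Receptor genes and enzymes of cyclic nucleotides made up another 7. Pth1r, the parathyroid hormone receptor, which signals through cyclic AMP, had 2.47 and 3.04 CPM at D1, 1.53 and 2.13 CPM at D3, 9.17 and 13.7 CPM at D8 and 5.15 and 10.02 CPM at D10, and here D3 lay below D1 in both libraries. Klb, a co-receptor for endocrine fibroblast growth factors, had 1.09 and 1.503 CPM at D1, 2.04 and 4.29 CPM at D3, 6.58 and 10.7 CPM at D8 and 8.44 and 8.57 CPM at D10. The libraries of D8 and D10 overlapped, and D3 replicate 2 was the highest early one. Adora1, the adenosine A1 receptor, had 0.238 and 0.491 CPM at D1, 1.23 and 1.56 CPM at D3, 2.42 and 4.75 CPM at D8 and 2.92 and 3.77 CPM at D10. Adcy6, which makes cyclic AMP, had 9.14 to 11.5 CPM at D8 and D10, against 4.8 to 5.64 CPM at D1 and D3. Pde3a, which breaks cyclic nucleotides down, had the second highest ratio of the 49, 3.02, with 0.0951 and 0.337 CPM at D1, 0.467 and 0.425 CPM at D3, 1.41 and 1.54 CPM at D8 and 1.44 and 1.57 CPM at D10. Its D3 libraries lay above its D1 libraries, and the late ones close together. Ltbr, a receptor of the tumour necrosis factor family, and Hrh1, a histamine receptor, had ratios of 1.68 and 1.54.

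Of the 4 protease and protease inhibitor genes, Habp2, a hyaluronan-binding serine protease, had the highest ratio of all 49, 4.73, with 0.285 and 0.399 CPM at D1, 0.510 and 0.603 CPM at D3, 2.85 and 4.81 CPM at D8 and 3.62 and 3.35 CPM at D10. All 4 D8 and D10 values lay far above the others, though at under 5 CPM. Spink1, a trypsin inhibitor and visceral endoderm marker, had 3.09 and 3.71 CPM at D1, 2.84 and 3.12 CPM at D3, 12.3 and 17.6 CPM at D8 and 11.98 and 8.89 CPM at D10. It belongs to a family of related inhibitors. Ctsh, the lysosomal protease cathepsin H, had 3.33 and 5.37 CPM at D1, 5.14 and 5.81 CPM at D3, 10.9 and 30.5 CPM at D8 and 14.1 and 33.4 CPM at D10, with replicate 2 the higher library on each day. Plat, the tissue plasminogen activator secreted by parietal endoderm, had 0.808 and 2.15 CPM at D1, 2.21 and 1.88 CPM at D3, 3.41 and 5.81 CPM at D8 and 4.57 and 9.99 CPM at D10.

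Genes of matrix and proteoglycan biology numbered 6. Srgn, the proteoglycan core protein serglycin, had 3.94 and 7.39 CPM at D1, 7.64 and 14.6 CPM at D3, 40.4 and 46.8 CPM at D8 and 35.05 and 39.2 CPM at D10. D3 replicate 2 was the highest early library, at a ratio of 2.39 to the lowest late one. Podxl, a sialomucin of cell surfaces, had 10.1 and 15.6 CPM at D1, 20.2 and 27.3 CPM at D3, 42.3 and 71.98 CPM at D8 and 58.8 and 62.4 CPM at D10, and its D3 libraries lay above its D1 libraries. Hs3st1 and Chst15, sulfotransferases that act on heparan and chondroitin chains, had ratios of 2.61 and 1.51, and Hs3st1 had 0.713 and 1.10 CPM at D1, 1.996 and 2.02 CPM at D3, 5.60 and 9.50 CPM at D8 and 5.27 and 11.9 CPM at D10. P3h2, which hydroxylates prolines of basement membrane collagen, had 0.143 and 0.184 CPM at D1, 0.807 and 0.673 CPM at D3, 1.44 and 2.21 CPM at D8 and 1.81 and 2.28 CPM at D10. Cemip, which takes part in hyaluronan breakdown, had 1.95 and 2.18 CPM at D1, 1.78 and 2.06 CPM at D3, 8.32 and 12.8 CPM at D8 and 4.04 and 4.87 CPM at D10, so that D10 lay between D8 and the earlier days.

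Junction, cytoskeleton and trafficking genes were the largest set, with 9. Amot, a junction scaffold that binds the YAP co-activator, had 4.47 and 5.34 CPM at D1, 8.49 and 7.69 CPM at D3, 26.6 and 43.9 CPM at D8 and 16.2 and 22.97 CPM at D10. Stard8, a GTPase-activating protein, had 3.28 and 5.00 CPM at D1, 4.59 and 5.74 CPM at D3, 16.6 and 33.4 CPM at D8 and 10.3 and 13.3 CPM at D10, and both genes had D8 levels above D10 levels with no overlap. Gsn, which severs actin filaments, had 3.75 and 6.10 CPM at D1, 5.43 and 6.45 CPM at D3, 14.6 and 28.7 CPM at D8 and 10.4 and 26.01 CPM at D10, with replicate 2 the higher on every day. Nostrin, a trafficking adaptor and visceral endoderm marker, had 0.713 and 0.951 CPM at D1, 0.722 and 2.98 CPM at D3, 6.35 and 5.15 CPM at D8 and 7.12 and 5.71 CPM at D10, with D3 replicate 2 apart from D3 replicate 1. Ratios of the others in this set were 2.49 for the focal adhesion gene Tns4, 2.22 for the cadherin gene Cdh6, 1.93 for the Cdc42 effector gene Cdc42ep1, 1.78 for the Rab exchange factor gene Rab3il1 and 1.58 for the scaffold gene Pdzd3.

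Among 5 genes of metabolism and transport, Hkdc1, a hexokinase-like protein, had 0.760 and 1.26 CPM at D1, 1.49 and 1.91 CPM at D3, 5.90 and 12.5 CPM at D8 and 5.56 and 11.5 CPM at D10. Soat1, which esterifies cholesterol, was the most abundant of the 49 in CPM, with 37.7 and 46.5 CPM at D1, 45.2 and 47.4 CPM at D3, 89.3 and 90.6 CPM at D8 and 78.9 and 88.7 CPM at D10. Aqp8, a water channel, had 0.285 and 0.337 CPM at D1, 0.934 and 0.744 CPM at D3, 1.93 and 4.93 CPM at D8 and 1.77 and 9.01 CPM at D10, with D10 replicate 2 far above D10 replicate 1. Slc44a3, a choline transporter-like gene, and Tmem144, a transmembrane protein gene, had ratios of 1.79 and 1.79. The last 5 genes were Dram1, which promotes autophagy, Gbp2, an interferon-induced GTPase, Glipr1, Spats2l and Nxf7, with ratios from 1.51 to 1.93. Gbp2 and Nxf7 belong to families of similar genes, so their reads are less certain.

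**Figure D3:**
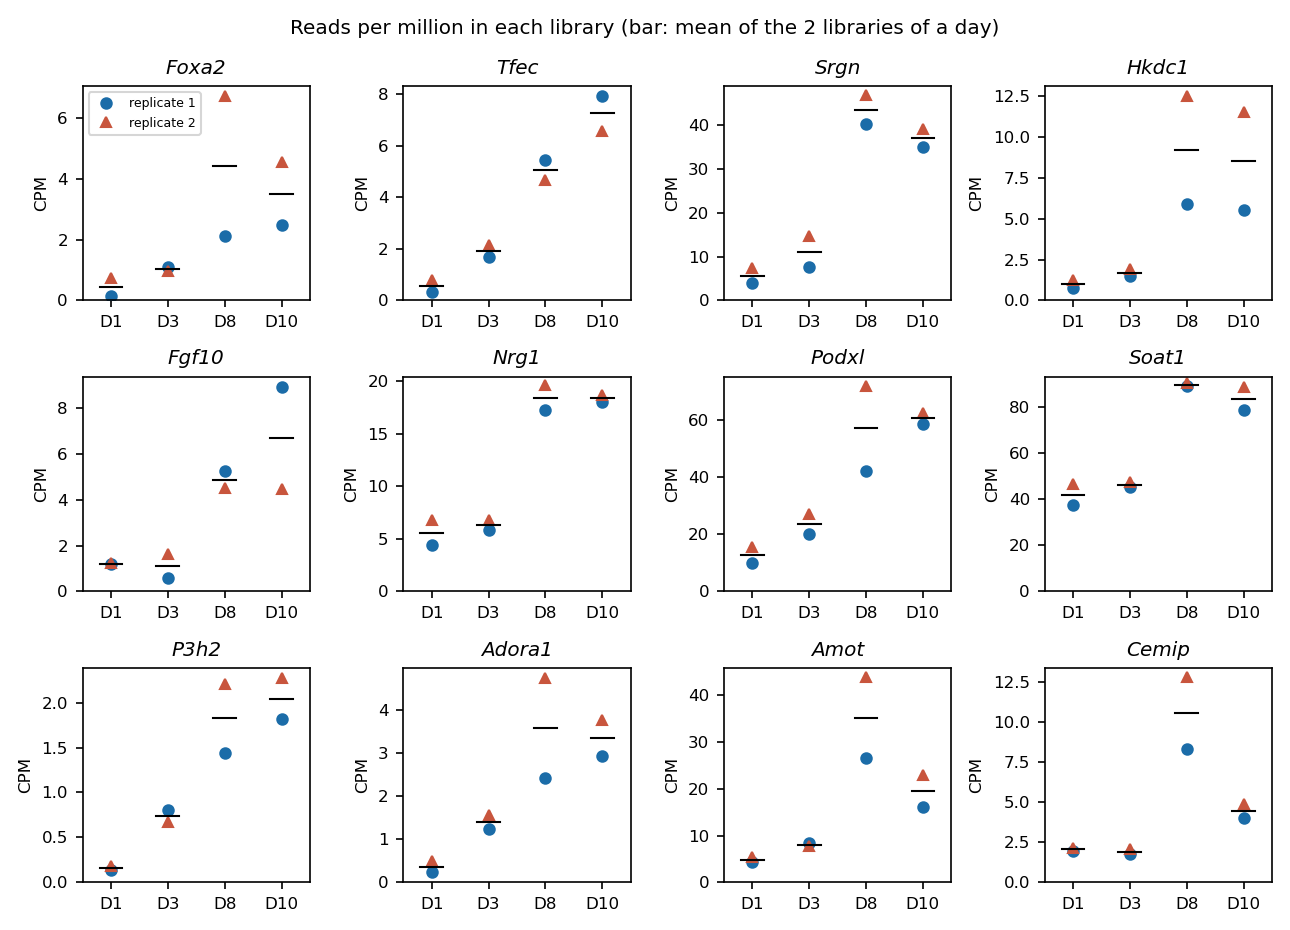
CPM (vertical axis, from 0) are plotted by day for 12 of the 49 genes, with 1 point per library (circle, replicate 1; triangle, replicate 2) and a bar for the mean of the 2 libraries. Tfec, P3h2 and Adora1 show the D3 points above the D1 points, and Amot and Cemip show the D10 points below the D8 points.

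Tests were made within each pair of days, since the rule compared the late pair with the early pair and did not compare D3 with D1 or D10 with D8. It does cap D1 and D3 and set a minimum for D8 and D10. All 49 genes passed the filter on low counts. D3 was set against D1 to ask whether the genes had already moved by the end of the first 48 h of ML-792. Of the 49, 3 rose and 0 fell in edgeR's quasi-likelihood test, at a Benjamini-Hochberg adjusted p under 0.05 over all 19173 genes tested. The background was 7.92% of all genes called higher and 5.1% called lower, so the 3 of 49 (6.12%) are a share near that of the table as a whole. At an unadjusted p under 0.05, 9 of the 49 (18.4%) passed, all of them higher. Over all genes tested 28.1% passed, with 2966 higher and 2414 lower. DESeq2 called 6 of the 49 higher and 0 lower, adding Srgn, Podxl and Klb, where it called 8.82% of all genes higher and 6.15% lower.

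P3h2 averaged 0.740 ± 0.0943 CPM at D3 and 0.163 ± 0.0293 CPM at D1 (SD, n = 2 each), which is 2.09 ± 0.49 (SE, adjusted p = 0.026) on the log2 scale by edgeR. Tfec averaged 1.93 ± 0.328 CPM at D3 and 0.565 ± 0.329 CPM at D1, which is 1.67 ± 0.39 (SE, adjusted p = 0.027) on the log2 scale. Adora1 averaged 1.40 ± 0.232 CPM at D3 and 0.364 ± 0.179 CPM at D1, which is 1.83 ± 0.51 (SE, adjusted p = 0.047) on the log2 scale. In each of the 3 genes both D3 libraries lay above both D1 libraries. P3h2 and Adora1 overlap an annotated gene on the opposite strand, and Tfec does not. None of the 3 passed in edgeR without D1 replicate 1, D3 replicate 1 or D3 replicate 2. Tfec alone passed without D1 replicate 2, and Adora1 was also lost without D10 replicate 1 or D10 replicate 2. Igf1, Klb, Podxl, Creb3l2, Srgn and Amot did not pass in edgeR, with adjusted p between 0.059 and 0.17.

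The median log2 fold change of the 49 genes between D3 and D1 was 0.33, against -0.02 for coding genes tested. Positive values were found for 41 of the 49 and for 48.2% of coding genes tested. Both D3 libraries were above both D1 libraries for 22 of the 49 genes, and both below for 2, Pth1r and Spats2l, where the table as a whole had 35.1% above and 29.5% below. The median of the 49 was 0.08 without D1 replicate 1 and 0.72 without D1 replicate 2, and D1 replicate 1 was the lower D1 library for 44 of the 49 genes. D1 replicate 1 also had the smallest number of reads. The D3 mean stood above the D1 mean by a median of 10.5% of the difference between D8 and D1, with a range over the genes from -10.6% for Pth1r to 40.3% for Creb3l2. The rule caps this share, since each D8 library had to be at least 1.5 times each D3 library. Genes already at their later level by D3 could not be chosen, so the share is a description only.

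**Figure D4:**
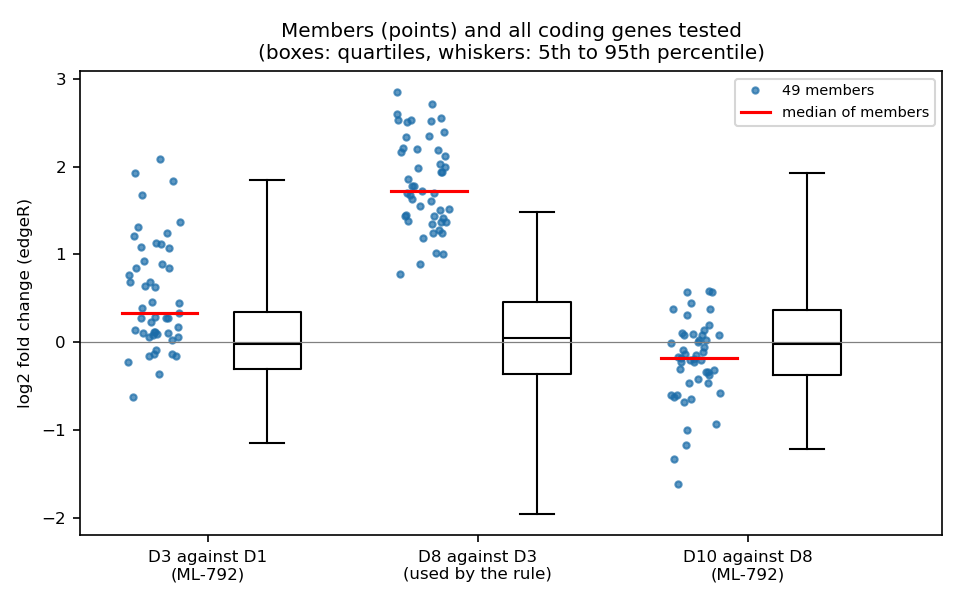
Log2 fold changes (vertical axis) of the 49 genes (points, red line at the median) are plotted beside all coding genes tested (boxes with quartiles, whiskers from the 5th to the 95th percentile) for D3 against D1, D8 against D3 and D10 against D8. The medians of the 49 are 0.33, 1.72 and -0.18, and the middle comparison is the one the rule used.

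The step between D3 and D8, in the days without inhibitor, is one that the rule used. It was the larger one on the log2 scale for all but 4 genes, P3h2, Adora1, Tfec and Igf1, whose fold change between D3 and D1 was larger. The ratio of D8 to D3 means ran from 1.64 to 6.89 with a median of 3.14. This ratio was 6.89 for Habp2, 5.51 for Cemip and 6.27 for Pth1r, and 1.64 for Creb3l2, which had been nearer to its later level at D3. The D8 to D1 ratio ran from 2.0 to 15.4 with a median of 4.76.

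D10 was set against D8 to ask whether the genes moved again under the second 48 h of ML-792. Of the 49, 0 rose and 1 fell in edgeR's test at an adjusted p under 0.05, where 9.27% of all genes were called higher and 7.65% lower. Cemip averaged 4.45 ± 0.592 CPM at D10 and 10.6 ± 3.19 CPM at D8, which is -1.33 ± 0.29 (SE, adjusted p = 0.016) on the log2 scale by edgeR, and both D10 libraries lay below both D8 libraries. Cemip no longer passed when D8 replicate 2 (edgeR adjusted p = 0.077) or D10 replicate 1 (edgeR adjusted p = 0.092) was removed. DESeq2 called 0 higher and 4 lower, where it called 9.79% of all genes higher and 8.32% lower. Its 4 were Cemip, Amot, Stard8 and Cited1. In edgeR Amot had a log2 fold change of -0.93 ± 0.28 with an adjusted p of 0.052, Stard8 had -1.17 ± 0.36 with 0.055 and Cited1 had -1.62 ± 0.51 with 0.059. At an unadjusted p under 0.05, 4 of the 49 (8.16%) passed, all of them lower. Over all genes tested 31.7% passed, with 3138 higher and 2946 lower.

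D10 libraries of most of the 49 genes overlapped those of D8. The ratio of D10 to D8 means ran from 0.346 for Cited1 to 1.61 for Glipr1, with a median of 0.933, and the overlap held for 37 of the 49. Both D10 libraries were below both D8 libraries for 11 genes, among them Spink1, Srgn, Amot, Cemip, Stard8, Tmem144 and Soat1, and above them for 1, Tfec, where the table as a whole had 23.7% below and 31.3% above. The median log2 fold change was -0.18, against -0.02 for coding genes tested. There were 17 genes positive and 32 negative, where 48.4% of coding genes tested were positive. The negative direction of the median turned when D8 replicate 2 was left out, where the median was 0.22.

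The response at the second exposure was compared with that at the first by the difference of both log2 fold changes, which share no library. In edgeR's test 0 of the 49 genes passed in either direction at an adjusted p under 0.05, and 0 of all 19173 genes did (0.0% called). DESeq2 called 0 of the 49 and 3 of all genes (0.0104% higher and 0.00522% lower). At an unadjusted p under 0.05, 10 of the 49 were lower and 0 higher at the second exposure, a share of 20.4%, where 575 of all 19173 genes reached that level in either direction. The median difference was -0.69, against -0.02 for coding genes tested. Negative values were found for 44 of the 49 and for 7616 of 14693 coding genes tested. Genes of the same libraries are not independent, so counts of signs carry no p. The median difference of the 49 stayed negative without each library in turn, between -0.99 and -0.35. Amot had a log2 fold change of -0.93 ± 0.28 at the second exposure and 0.68 ± 0.30 at the first, a difference of -1.62 ± 0.41. Adora1 had -0.19 ± 0.40 at the second exposure and 1.83 ± 0.51 at the first, and P3h2 had 0.08 ± 0.34 at the second and 2.09 ± 0.49 at the first (SE each). The difference had an unadjusted p of 0.00345 to 0.013 in these 3 genes in edgeR. None of the 3 passed after adjustment (edgeR adjusted p = 0.9999 each), so no difference between the exposures is shown for them. Without the low-count filter 1 member, Amot, was called for the difference, at an edgeR adjusted p of 0.0053.

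The 2 libraries of a day differed in a like manner on every day. Replicate 2 was above replicate 1 for 44 of the 49 genes at D1, 37 at D3, 43 at D8 and 39 at D10, and for 25 genes on all 4 days. Over all coding genes tested replicate 2 was higher for 55.9% at D1, 54.5% at D3, 50.1% at D8 and 62.4% at D10. The median log2 difference between replicate 2 and replicate 1 over the 49 genes was 0.52 at D1, 0.25 at D3, 0.65 at D8 and 0.32 at D10, where coding genes as a whole had medians of 0.00 to 0.10. The sum of the 49 genes was 121 and 166 CPM at D1, 170 and 209 CPM at D3, 450 and 669 CPM at D8 and 436 and 572 CPM at D10. Replicate 2 was at least 2 times replicate 1 on both D8 and D10 for 8 genes, Hkdc1, Tns4, Nxf7, Aqp8, Ctsh, Glipr1, Chst15 and Gbp2. No label says whether the libraries of a day are separate cultures, and the replicates may be technical.

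**Figure D5:**
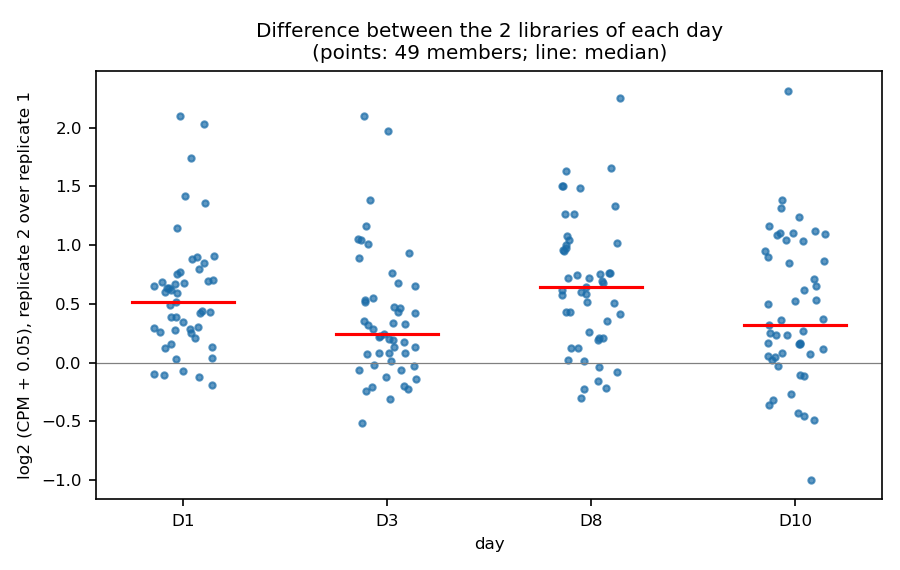
The log2 difference between replicate 2 and replicate 1 (vertical axis, from CPM + 0.05) is plotted for each of the 49 genes by day, with a red line at the median. The medians lie above 0 on all 4 days.

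The genes were then read against 25 lists of genes grouped by function or cell type, which share some genes. Of the 49, 16 stood on at least 1 list and 33 on none, and 18 of the lists held none of them. The list of primitive and parietal endoderm genes held 9 of the 49 among its 29 tested genes, namely Srgn, Foxa2, Aqp8, Pth1r, Igf1, Plat, Bmp2, Creb3l2 and Cited1. Of its 20 other genes, 8 had all D8 and D10 libraries above all D1 and D3 libraries, which 3.2% of coding genes tested did. Visceral endoderm markers held 4 of the 49 among 20 tested, Spink1, Amot, Ctsh and Nostrin, and 1 of the other 16 had that order. Lists outside the endoderm had that order too, among genes not in the 49. It held for 8 of 29 lysosome, endocytosis and lipid transport genes and 6 of 36 matrix genes. It also held for 4 of 26 secretory pathway genes, 5 of 33 growth factor and cytokine receptor genes and 0 of 26 naive pluripotency genes. In the tests that the rule did not use, 4 of the 29 primitive and parietal genes were higher and 1 lower between D3 and D1 (median log2 fold change 0.39). Between D10 and D8, 2 were higher and 1 lower (median 0.12). Among the 20 visceral genes, 1 was higher and 2 lower between D3 and D1 (median -0.18). Between D10 and D8, 1 was higher and 3 lower (median -0.52). Over all genes tested, 7.92% were higher and 5.1% lower between D3 and D1, and 9.27% and 7.65% between D10 and D8. The median of coding genes tested was -0.02 in both comparisons. The order of late above early libraries is the comparison that the rule used, and the lists were drawn up with earlier results of these data known. Their overlap with the 49 genes and the order of their other genes are therefore descriptions only.

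Lists of other cell types held few or none of the 49. None came from the lists for naive pluripotency, primed epiblast, mesoderm, neural ectoderm, trophoblast, Hox, germline, imprinted, p53 target, interferon and 2-cell-like genes. The same was true of the lists for the retinoic acid pathway, actin cytoskeleton and mesenchyme, epithelial junctions and keratins, and fibroblasts. Lists for growth factor and cytokine receptors, the SUMO pathway and heterochromatin held none either. The receptor, junction and cytoskeleton genes described above are thus not on the lists of those names. These lists are not complete, since Gbp2, described above as interferon-induced, is not on the interferon list. A list without a member therefore does not show that no gene of its kind is among the 49. The blood and endothelial list held Runx1 alone, matrix genes P3h2, secretory pathway genes Creb3l2, signalling read-outs Dkk1 and lysosome genes Ctsh. The summed level of the primitive and parietal list was 1169 to 1407 CPM at D1, 1365 to 1565 CPM at D3, 1767 to 2238 CPM at D8 and 1817 to 2268 CPM at D10, and its part in the level of the other members was not tested.

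The genes were spread over 17 chromosomes. Chromosome 6 held 6 of them (12.2%, against 4.59% of coding genes at 1 CPM or more in each D8 and D10 library), chromosome 10 held 5 (10.2%, against 4.82%) and the X chromosome held 4 (8.16%, against 3.40%), Nxf7, Amot, Stard8 and Cited1. Chromosomes 12, 14 and 17 held none. Of all pairs, 2 lay within 1 Mb, both on chromosome 10. Hkdc1 (ENSMUSG00000020080) lies on chromosome 10 from 62383137 to 62422491 and Srgn (ENSMUSG00000020077) lies on chromosome 10 from 62493833 to 62527451 on mm10, and the pair is 71341 bp apart. The 3 coding genes between them did not share the pattern. The helicase gene Supv3l1 averaged 77.5 CPM at D8 and D10 and 80.7 CPM at D1 and D3, and the retromer gene Vps26a averaged 90.1 CPM at D8 and D10 and 95.5 CPM at D1 and D3. The other pair, Igf1 and Dram1, is 385761 bp apart with 4 coding genes between.

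The promoter windows of this neighbouring pair are shown in the same manner. The Hkdc1 window is at chr10:62422408-62422707 and the more upstream of 2 Srgn windows at chr10:62527396-62527695, both on the minus strand and both without a match to any searched motif, so that they hold no capitals.
Hkdc1: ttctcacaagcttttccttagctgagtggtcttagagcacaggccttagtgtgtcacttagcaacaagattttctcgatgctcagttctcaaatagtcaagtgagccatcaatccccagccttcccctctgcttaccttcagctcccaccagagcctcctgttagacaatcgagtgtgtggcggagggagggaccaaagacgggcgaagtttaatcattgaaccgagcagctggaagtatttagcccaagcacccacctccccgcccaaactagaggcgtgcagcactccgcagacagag
Srgn: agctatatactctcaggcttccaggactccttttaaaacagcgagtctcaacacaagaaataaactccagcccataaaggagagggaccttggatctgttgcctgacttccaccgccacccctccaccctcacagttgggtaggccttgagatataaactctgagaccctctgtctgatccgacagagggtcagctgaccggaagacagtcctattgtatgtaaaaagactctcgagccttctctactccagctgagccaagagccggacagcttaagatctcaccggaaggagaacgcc

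RefSeq windows matched 37 of the 49 genes by symbol, with 60 windows among them. Motifs were searched as exact letters on both strands. Their share was set beside all 32851 windows and beside the 11980 windows of coding genes at 1 CPM or more in each D8 and D10 library. AGATAA stood in 6.67% of the windows, in Foxa2, Hrh1 and Nxf7, against 11.2% of all windows and 5.81% of those of the coding genes. ACAAAG stood in 18.3%, against 18.7% of all and 13.5% of the coding genes' windows. ACAATG stood in 8.33%, against 12.6% and 7.10% in the same order. The forkhead motif TGTTTAC stood in 3.33%, against 3.65% of all and 2.44% of the coding genes' windows. The E-box CACGTG stood in 10.0%, against 7.15% and 10.3%, and the AP-1 motif TGACTCA in 3.33%, against 5.2% and 3.38%. The TCF motif CTTTGATC was in none of the windows, against 0.938% and 0.618%. The shares of the GATA, SOX and forkhead motifs rest on 4 windows for AGATAA, 11 for ACAAAG, 5 for ACAATG and 2 for TGTTTAC. Each share lay between those of the 2 comparison sets. With so few windows and no test, no motif is singled out. The windows had a median of 12 CpG dinucleotides and 56.8% GC, against 21 and 61.3% in windows of coding genes at 1 CPM or more in each D8 and D10 library. Median exonic length was 4499 bp, against 4568 bp for those coding genes.

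At the edge of the rule, the genes just inside were Gbp2, Chst15, Cited1, Creb3l2 and Bmp2, with ratios of 1.51 to 1.53. The genes just outside were Arhgef5, F3, Cd109, Nfkb2 and Pnmal2, with ratios of 1.44 to 1.49. The highest early library, which set the ratio, was D3 replicate 2 for 32 of the 49 genes and D3 replicate 1 for 11. The lowest late library was D10 replicate 1 for 22 genes and D8 replicate 1 for 19. Of the 49 genes, 20 overlap an annotated gene on the opposite strand, and their reads cannot be assigned with certainty because the strand setting of the counting is not given in the sources used here.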

How the data were processed

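The deposited values are raw counts of reads for 36920 Ensembl genes in 8 libraries, not normalized by the authors. Per the submitters' processing notes, the tools were bcl2fastq 2.17.1.14, STAR 2.5.0a and featureCounts, with build mm10. The sources used here do not give the featureCounts version, its annotation or its settings. The kit marks strand, per the labels' protocols. Symbols, biotypes and mm10 (GRCm38) coordinates came from GENCODE M21 by identifier, which named 36901 genes and left 19 without a symbol.

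CPM was reads divided by the library total of reads in genes. The low-count filter was filterByExpr of edgeR, which left 19173 genes. The 4 groups were fitted together in edgeR 4.0.16 (R 4.3.3) with TMM scaling and no replicate term, which left 4 residual degrees of freedom; the coefficient of biological variation was 19.6%. Tests were 2-sided with Benjamini-Hochberg adjustment over all genes tested and a threshold of 0.05. The SE is the log2 fold change divided by the square root of the F statistic. The labels do not say that replicates are separate cultures, so p-values cover the spread between these libraries alone. The labels call the molecule polyA RNA, while the extract text describes ribosomal RNA removal from total RNA. The fit was also run on simulated counts that held no shared replicate effect and no GC effect. The outcome of that run is not used as support here. DESeq2 1.42.0, other scalings and filters, a replicate term, a correction for GC content and length, and fits without each library were alternatives.

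The members and lists were chosen with earlier results of these data known. Genes were named by a rule that took the 20 highest ratios, the 10 highest levels per kilobase, called genes, up to 4 members per list and the 5 genes on each side of the threshold. The remaining members and the genes between neighbours were named after their values were seen.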

Additional observations from a re-analysis of the deposited data

How the results depend on the processing

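The number of genes meeting the rule was 11 at a ratio of at least 2, 88 at the planned lower ratio, 22 at a minimum of 5 CPM and 50 to 81 without each library in turn, a count that cannot fall when a library is removed, since the rule takes a lowest and a highest library. TMM-scaled CPM gave 50, all of the 49 and Zfp608. Between D3 and D1, the count of members higher was 6 by DESeq2, which called 2871 of all genes in either direction, 9 without the low-count filter and 0 to 4 without each library in turn. All genes called were 3847 without the filter and 387 to 3238 without each library. Between D10 and D8, members lower were 4 by DESeq2, 4 without the low-count filter, 4 with GC content and length corrected for, and 0 to 4 without each library. The genes called in all were 3472 by DESeq2, 4576 without the filter, 3748 with that correction and 1420 to 4304 without each library. For the difference of responses, all genes called were 3 by DESeq2 and 66 without the low-count filter, and members lower were 1 without that filter. Where a day keeps 1 library, that library is assumed to vary like those of the other days. The libraries of 1 number share only that number: the deviations of same-numbered libraries correlated at 0.101 to 0.498 across genes between pairs of days, which is a hint from the data and not the design. With the replicate block, Igf1, Srgn, Podxl, Klb, Creb3l2 and Hs3st1 joined P3h2, Tfec and Adora1 as higher between D3 and D1, 9 members in all. Amot, Stard8, Cited1 and Pth1r joined Cemip as lower between D10 and D8, 5 in all, and all genes called were 4187 and 5298. The cause of these shifts was not tested. The lowest D1 values rest on as few as 1 read, so differences between D3 and D1 are least certain for those genes.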

Other observations

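Of the 15 endoderm genes that the rule leaves out, the 4 that did not meet the thresholds were Gata6, Sox7, Lrp2 and Sparc. Gata6, a GATA factor of the primitive endoderm, had a lowest D8 or D10 library of 11.1 CPM, against a highest D1 or D3 library of 8.01 CPM. The same pair of values was 2.18 and 2.66 CPM for Sox7, 116 and 113 CPM for the endocytic receptor gene Lrp2, and 256 and 180 CPM for the matrix gene Sparc. The 2 coding genes that met the thresholds in the opposite direction were Ptgs1, a cyclooxygenase gene, with 2.66 to 3.28 CPM at D8 and D10, against 5.14 to 6.42 CPM at D1 and D3, and Xlr4a, an X-linked gene of a multi-copy family, with 0.782 to 1.18 CPM at D8 and D10, against 1.83 to 3.08 CPM at D1 and D3. A further 8 coding genes had a ratio of at least 1.5 with a lowest late library under 1 CPM. These genes were chosen after their values were seen, and none of these differences was tested.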
